A study of Mus musculus with 2 samples.

Results

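The Mir148 and Mir152 family consists of 3 microRNA genes, Mir148a, Mir148b and Mir152, whose main products carry the same seed. The members were found by gene name in the GENCODE M21 annotation of the count tables, as 3 of 2202 microRNA genes, and all 3 had reads in both libraries. The family was selected on its seed and with its sense-strand counts in both libraries already known, Mir152 having been among the genes furthest apart between them. Levels and ratios are therefore given as a description without a test.

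MicroRNA-seq was performed on RNA of gastrocnemius, a calf muscle, from adult male mice aged 18 to 20 months. All animals were B6CASTF1/J, the first-generation offspring of a C57BL/6J by CAST/EiJ cross, and no treatment or other genotype was named. The 2 libraries form 1 group, biological replicates 2 and 1, with inserts under 30 nt. They came from separate biosamples, but the labels gave both the same donor identifier and did not state separate animals, so the spread between them may be technical.

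A microRNA is cut from a hairpin precursor, and its strand held by an Argonaute protein pairs with messenger RNAs through the seed, bases 2 to 8 from the 5′ end. Members with the same seed are expected to recognise overlapping sets of messenger RNAs. The family is known for its binding to the messenger RNA of Dnmt1, the maintenance DNA methyltransferase. Its member miR-148a is also known from mouse and human liver as a regulator of the low-density lipoprotein receptor, and from cultured mouse myoblasts as a microRNA linked to differentiation.

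The mature sequences below, from RefSeq on GRCm38.p6, show what the members share and where they differ. Capitals mark the seed, and each RNA is written 5′ to 3′.
miR-148a-3p: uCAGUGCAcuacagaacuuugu
miR-148b-3p: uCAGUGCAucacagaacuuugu
miR-152-3p: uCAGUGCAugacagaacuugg
miR-148a-5p: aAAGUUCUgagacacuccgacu
miR-148b-5p: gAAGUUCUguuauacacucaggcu
miR-152-5p: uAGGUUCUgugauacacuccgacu

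The 3p RNAs had the seed CAGUGCA in common and differed from each other only behind it. Differences are written with the base of the first-named RNA, the position counted from 1 at the 5′ end, and the base of the other RNA. miR-148a-3p differed from miR-148b-3p at 2 of 22 positions, C9U and U10C. Against miR-152-3p, miR-148a-3p differed at 3 of 21 aligned positions, C9U, U10G and U20G, and miR-148b-3p at 2 of 21, C10G and U20G. Among 1738 mature sequences in the RefSeq table, these 3 were the only ones with this seed. That table holds 1005 hairpins, fewer than the 2202 counted genes, and sequences outside it were not searched. The 5p RNAs, from the other arm of the hairpins, did not all share a seed. It was AAGUUCU in miR-148a-5p and miR-148b-5p, while miR-148b-5p differed from miR-152-5p by A3G within it.

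The hairpins are shown because the counts belong to whole precursors, with the 3p RNA in capitals.
Mir148a hairpin: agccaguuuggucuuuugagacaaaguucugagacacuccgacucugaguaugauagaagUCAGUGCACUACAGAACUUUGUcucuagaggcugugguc
Mir148b hairpin: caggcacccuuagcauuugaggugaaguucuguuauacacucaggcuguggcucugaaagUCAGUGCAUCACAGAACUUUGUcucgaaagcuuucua
Mir152 hairpin: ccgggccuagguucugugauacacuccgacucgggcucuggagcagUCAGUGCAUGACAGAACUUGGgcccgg

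The deposited tables give 1 count per precursor, so reads of the 3p and 5p arms could not be separated. Reads that map to several places were not assigned to genes. They made up 70.2% of the reads of replicate 2 and 73.8% of those of replicate 1. The longest exact stretch a member shared with any of the other RefSeq hairpins was 15 bases, between Mir148a and Mir148b, and 12 bases for Mir152. None of the 3 mature 3p sequences occurred in another hairpin of the table. Copies elsewhere in the genome were not searched, so how many family reads were left out as multimapping is unknown.

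The loci lie on 3 chromosomes of mm10, with 1-based coordinates from GENCODE M21. Mir148a (ENSMUSG00000065505.1) lies at chr6:51269812-51269910 on the minus strand and overlaps no other annotated gene. Mir148b (ENSMUSG00000065560.1) lies at chr15:103285125-103285221 on the plus strand, in the first intron of Copz1. Mir152 (ENSMUSG00000065515.1) lies at chr11:96850393-96850465 on the plus strand, in the first intron of Copz2. Copz1 and Copz2 are paralogous genes for the zeta subunit of the COPI vesicle coat, and both are transcribed in the direction of the microRNA within them.

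The host introns differed in size although the layout was alike. The Copz1 intron measured 16159 bases in all 4 annotated transcripts, whereas the Copz2 intron measured 676 bases in the 3 of 5 transcripts that span it. Neither microRNA gene overlapped an exon of its host. Each member also had a gene of the Nfe2 transcription factor group on its chromosome, Nfe2l3 at 163 kb from Mir148a, Nfe2 at 26.7 kb from Mir148b and Nfe2l1 at 20.4 kb from Mir152.

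Levels are given in CPM, counts of a gene scaled to a common library total (CPM) over all reads assigned to microRNA genes on their own strand. The total was 2156222 counts for replicate 2 and 4442692 for replicate 1. At these depths a count of 0 would allow up to 1.39 CPM in replicate 2, against 0.675 CPM in replicate 1. Intervals are exact 95% Poisson intervals of the counts. They cover counting error only, since PCR-amplified reads are not independent molecules. Counts were not divided by length, since the mature 3p RNAs are 21 or 22 nt long.

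Mir152 had 102 counts in replicate 2 and 1394 counts in replicate 1. Its level was 47.3 CPM (interval 38.6 to 57.4) in replicate 2 and 314 CPM (298 to 331) in replicate 1, a mean of 181 ± 188 CPM (SD, n = 2). It was the highest member in both libraries, and the SD exceeded the mean. Fewer cells of a type and less RNA per cell cannot be told apart in such bulk tissue. The gene ranked 164th of 2202 microRNA genes in replicate 2 and 93rd in replicate 1. Ranks over the whole annotation flatter a gene, since 1559 of the 2202 were left uncounted by both libraries. Genes at 2 CPM or more numbered 348 in replicate 2 and 357 in replicate 1.

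Mir148a had 41 counts in replicate 2 and 512 counts in replicate 1. Its level was 19.0 CPM (13.6 to 25.8) in replicate 2 and 115 CPM (105 to 126) in replicate 1, a mean of 67.1 ± 68.0 CPM (SD, n = 2). Replicate 2 was again the low library, and there Mir148a was the lowest member, at rank 210 against rank 127 in replicate 1.

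Mir148b had 84 counts in replicate 2 and 460 counts in replicate 1. Its level was 39.0 CPM (31.1 to 48.2) in replicate 2 and 104 CPM (94.3 to 113) in replicate 1, a mean of 71.2 ± 45.7 CPM (SD, n = 2). Its libraries lay closer together than those of the other members, with rank 174 in replicate 2 and rank 132 in replicate 1. No counting interval of a member in replicate 2 reached its interval in replicate 1.

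No member had a read on the opposite strand in either library, and the counts without strand were the same as those on the gene's strand. The assigned total is smaller without strand, so on that total the mean levels would be 254 CPM for Mir152, 94.3 CPM for Mir148a and 99.6 CPM for Mir148b. For comparison, the 324 genes with 2 CPM or more in both libraries had a median level of 48.0 CPM in replicate 2 and 51.0 CPM in replicate 1. All 3 members lay below that median in replicate 2 and above it in replicate 1. In replicate 2 the counting intervals of Mir152 (38.6 to 57.4) and Mir148b (31.1 to 48.2) included the median. Only Mir148a was below it there beyond counting error.

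**Figure D1:**
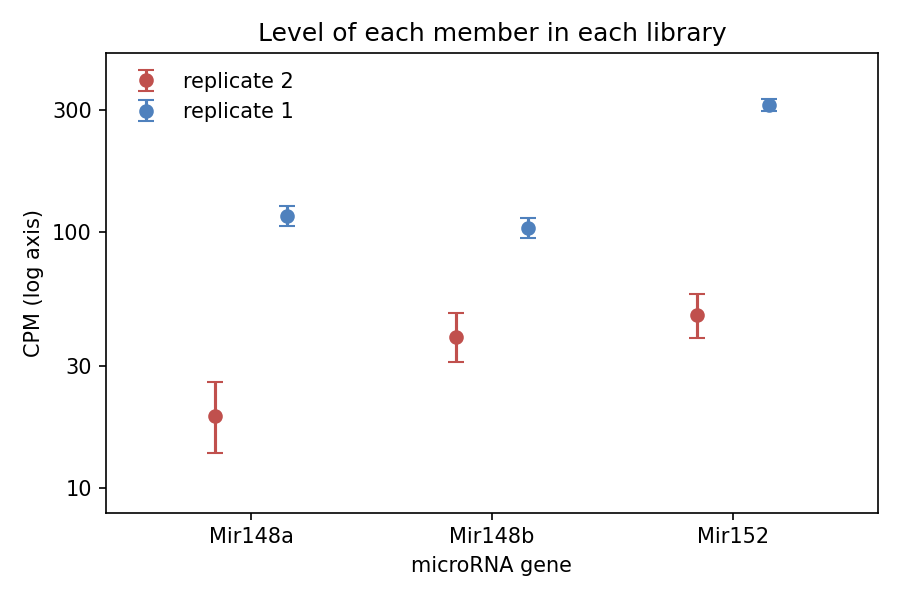
CPM (log axis) of Mir148a, Mir148b and Mir152 in replicates 2 and 1, with exact 95% Poisson intervals of the counts as bars. Each member is lower in replicate 2, at 19.0 to 47.3 CPM, than in replicate 1, at 104 to 314 CPM.

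The family together had 227 counts in replicate 2 and 2366 in replicate 1. In replicate 2 this was 0.0105% of assigned counts (Wilson 95% interval 0.00924 to 0.0120), against 0.0533% (0.0512 to 0.0554) in replicate 1, on average 0.0319% ± 0.0302 (SD, n = 2). The family was thus a small part of this muscle's microRNA counts in both libraries. Mir378a, the most abundant microRNA gene of the tables, had 1764 times the counts of the whole family in replicate 2 and 300.4 times in replicate 1.

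The make-up of the family differed between the libraries. In replicate 2, Mir152 gave 44.9% of the family's counts (Wilson 95% interval 38.6 to 51.4), against 58.9% (56.9 to 60.9) in replicate 1. Mir148b gave 37.0% (31.0 to 43.5) in replicate 2 and 19.4% (17.9 to 21.1) in replicate 1. Mir148a gave 18.1% (13.6 to 23.6) in replicate 2 and 21.6% (20.03 to 23.3) in replicate 1. The intervals of Mir152 and of Mir148b did not meet between the libraries, while those of Mir148a overlapped.

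**Figure D2:**
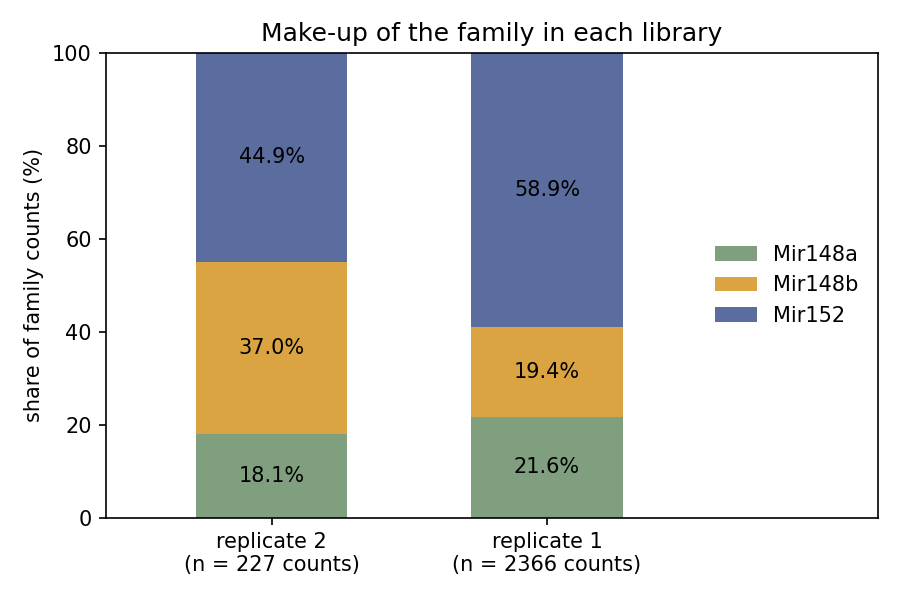
Share (%) of the family's counts held by each member in replicate 2 (227 counts) and replicate 1 (2366 counts). Mir148b holds 37.0% in replicate 2 and 19.4% in replicate 1, and Mir152 is the largest part in both.

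Ratios between members within a library do not depend on how the libraries are scaled. Mir152 had 2.49 times the counts of Mir148a (1.72 to 3.67, the exact 95% Clopper-Pearson bounds of the counts) in replicate 2, against 2.72 times (2.46 to 3.02) in replicate 1. The log2 change of this ratio, replicate 2 minus replicate 1, was −0.13 (exact conditional interval −0.69 to 0.45), so a change was not detectable at this depth. The interval allows a change of either sign.

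Mir148b stood apart from both. Mir152 had 1.21 times its counts (0.901 to 1.64) in replicate 2 and 3.03 times (2.73 to 3.37) in replicate 1, a log2 change of −1.32 (−1.78 to −0.86). Mir148b had 2.05 times the counts of Mir148a (1.39 to 3.05) in replicate 2 and 0.898 times (0.790 to 1.02) in replicate 1, a log2 change of 1.19 (0.60 to 1.80). The order of levels was thus Mir152, Mir148b, Mir148a in replicate 2, where Mir152 and Mir148b did not differ beyond counting error. In replicate 1 it was Mir152, Mir148a, Mir148b, where Mir148a and Mir148b did not differ beyond counting error.

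Between the libraries, log2 ratios of replicate 2 over replicate 1 were taken on CPM + 1 with edgeR's TMM scaling, which corrects library totals for a few dominant genes. The ratio was −2.61 for Mir152 (exact 95% counting interval −2.94 to −2.35), −2.45 for Mir148a (−3.002 to −2.05) and −1.30 for Mir148b (−1.67 to −0.98). Counting intervals of ratios between the libraries, here and below, were computed from the counts without the added 1 CPM. They are therefore not centred on the printed ratios. On the TMM-scaled CPM + 1, replicate 1 was 6.11-fold, 5.45-fold and 2.46-fold replicate 2 for Mir152, Mir148a and Mir148b. All 3 members were lower in replicate 2 by 2-fold or more, as were 18.7% of the 380 genes that had at least 10 counts in total. Another 12.9% of the 380 were higher in replicate 2 by as much, so 31.6% were apart by 2-fold or more in either direction. Since these ratios were known when the family was selected, nothing is read from that difference in shares. Their median ratio was −2.45, beside a median of 0.02 over the 380 genes.

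All 3 members also had 100 or more summed counts, as did 228 genes in all. The SD of the log2 ratio over these 228 genes was 1.13, and the members' ratios were 2.30, 2.16 and 1.14 times that SD for Mir152, Mir148a and Mir148b. Of the 228, 17.1% were lower in replicate 2 by 2-fold or more. From the most negative ratio upwards, Mir152 came 5th, Mir148a 7th and Mir148b 27th of the 228. Genes counted about as deeply spread widely too. Of the 37 other genes with summed counts between 544 and 1496, the range of the members, 10 (27%) were lower in replicate 2 by 2-fold or more, 5 were higher by as much and 22 lay within 2-fold. Their median log2 ratio was −0.02.

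**Figure D3:**
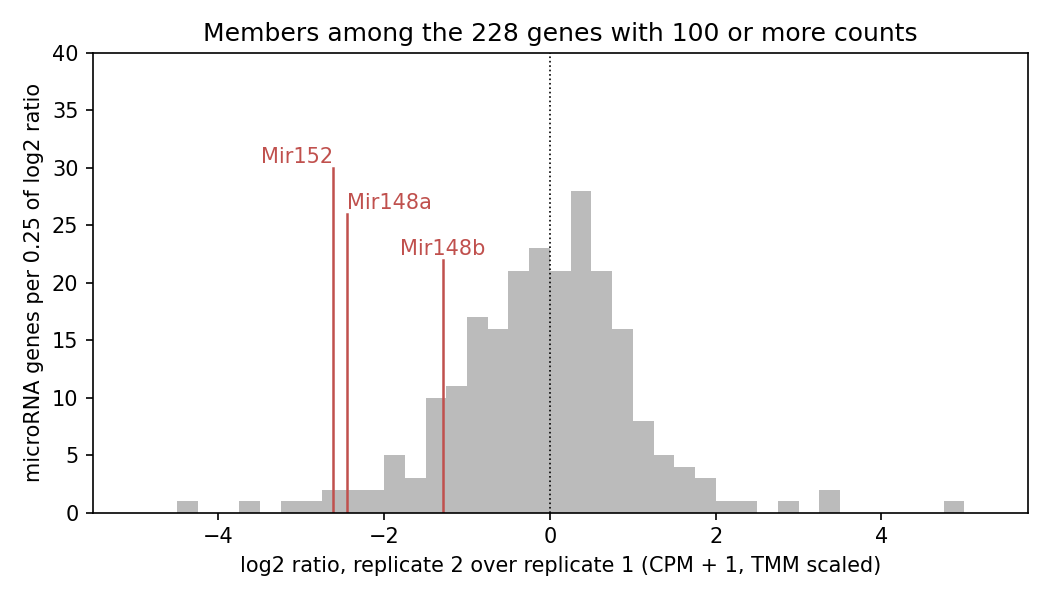
Number of microRNA genes per 0.25 of log2 ratio, replicate 2 over replicate 1, for the 228 genes with 100 or more counts, with red lines at the 3 members. Mir152 (−2.61) and Mir148a (−2.45) lie in the sparse lower tail and Mir148b (−1.30) at its edge.

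The microRNA genes closest in pattern were sought by the distance of log2(CPM + 1) over the 2 libraries, among 225 other genes with 100 or more counts. Mir340, at 25.5 CPM in replicate 2 and 119 CPM in replicate 1, was closest to Mir148a (distance 0.41), followed by Mir299a (0.47) and Mir434 (0.64). Mir190a, at 41.3 CPM in replicate 2 and 113 CPM in replicate 1, was closest to Mir148b (0.14), followed by Mir434 (0.40) and Mir337 (0.52). Mir152 had no neighbour as near, with Mir1247 (0.72), Mir339 (0.86) and Mir25 (1.02) the closest. With 2 libraries this is a likeness of 2 values only. Of these 8 genes 4 lie on chromosome 12, which holds no member. The share of that chromosome among the 225 candidates was not computed, so nothing is read from this count.

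An overlapping seed is known from the Mir130 and Mir301 genes, whose mature RNAs carry the bases AGUGCA 1 position nearer to the 5′ end. The sequences show the shared bases in capitals.
miR-148a-3p: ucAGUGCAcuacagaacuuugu
miR-130a-3p: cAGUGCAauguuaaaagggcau
miR-301a-3p: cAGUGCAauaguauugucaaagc

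In the list of these relatives, fixed by name, 3 of 5 genes had 10 or more counts, and Mir721 and Mir301b had none in either library. Mir130a had 1075 CPM in replicate 2, against 856 CPM in replicate 1, and its log2 ratio was 0.42 (0.35 to 0.50). Mir301 had 9.28 CPM in replicate 2, against 218 CPM in replicate 1, and its log2 ratio was −4.33. The list's median was 0.10, with Mir130b at that value from 23 counts in replicate 2 and 47 counts in replicate 1. Mir130a alone was above the summed level of the family, 105 CPM in replicate 2, against 533 CPM in replicate 1. Read 5′ to 3′, AGUGCA stood within the first 9 bases of 12 of the 1738 mature RNAs (0.690%), the family included. No RNA of Mir301b was among these 12, and sequences outside the RefSeq table were not searched. Apart from the Mir130 and Mir301 genes, those with a count were the members and Mir350, whose miR-350-5p has it at the same position as the family behind a different base. Mir350 had 211 CPM in replicate 2 and 449 CPM in replicate 1.

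Other microRNAs known from the processes the family is linked to are given beside the shares over all 380 genes, of which 18.7% were lower and 12.9% higher in replicate 2 by 2-fold or more. Of the list linked to myoblast differentiation, 17 of 18 genes had 10 or more counts. In replicate 2, 5 of them were lower by 2-fold or more, 2 were higher and 10 lay within 2-fold, with a median of −0.40. Mir378a and Mir206 led it, the second a muscle-specific microRNA gene at 61540 CPM in replicate 2 and 11810 CPM in replicate 1. Of the list linked to cholesterol and lipids, 11 of 12 genes had 10 or more counts. In replicate 2, 1 was lower by 2-fold or more, 2 were higher and 8 lay within 2-fold, with a median of 0.27. Mir27b and Mir27a led it, at log2 ratios of −0.28 and −0.13. Both lists hold numbered copies, such as Mir1a-1 and Mir1a-2 in the first. Reads shared between such copies were not assigned, so the gene counts and medians need not describe these microRNAs as a whole.

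Marker microRNAs of skeletal muscle and of other cell types are given beside the same shares, 18.7% lower and 12.9% higher over the 380 genes. All 10 skeletal muscle markers were at 2 CPM or more in both libraries, and their summed level was 65724 CPM in replicate 2 and 16415 CPM in replicate 1. Most of that sum was Mir206. By gene, 3 of the 10 were lower in replicate 2 by 2-fold or more, 4 were higher and 3 lay within 2-fold. The counting intervals of the 3 lower genes included changes below 2-fold, whereas those of the 4 higher genes did not. The median log2 ratio of the 10 genes was −0.26, of the other sign than the change of the sum. Reads shared between loci were not assigned, so levels of numbered copies, such as Mir1a-1 and Mir1a-2 or Mir133a-1 and Mir133a-2, may be too low. Neither the sum nor the median is therefore a level of the muscle microRNAs as a whole. The summed level was 55386 CPM in replicate 2 and 104418 CPM in replicate 1 for the endothelial marker Mir126a. For the smooth muscle and mural markers it was 56840 CPM in replicate 2 and 48845 CPM in replicate 1, and for the leukocyte markers 3632 CPM in replicate 2 and 2285 CPM in replicate 1. Of the 4 leukocyte markers 1 was higher by 2-fold or more and 3 lay within 2-fold, with Mir142 at −0.69 and Mir223 at −0.23. Both mural markers and the endothelial marker, at −0.82, lay within 2-fold, Mir145a only just.

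The erythroid, stromal and epithelial sums were lower in replicate 2 as well. Both erythroid markers were lower by 2-fold or more, with a sum of 109 CPM in replicate 2 and 777 CPM in replicate 1. The fibroblast and stroma markers summed to 416 CPM in replicate 2 and 1654 CPM in replicate 1. Most of that was Mir214, at 398 CPM in replicate 2 and 1620 CPM in replicate 1. Of the 3 counted members it alone was lower by 2-fold or more. Mir199a-1 was at 0 in both libraries, which need not mean absence, since reads shared with Mir199a-2 would not be assigned. The epithelial markers summed to 14.8 CPM in replicate 2 and 63.9 CPM in replicate 1, with 3 of 4 counted members lower by 2-fold or more. These 3 rested on few counts in replicate 2, 8 for Mir205, 2 for Mir200b and 1 for Mir429. The counting interval of Mir429, −8.56 to −0.54, included changes below 2-fold. Of the epithelial markers under 10 summed counts, Mir200a had 0 counts in replicate 2 and 6 in replicate 1. Mir141 had 3 counts in replicate 2 and 1 count in replicate 1. The liver marker Mir122 went the other way, at 396 CPM in replicate 2 and 13.3 CPM in replicate 1. The part of these cell types and of the 2.06-fold deeper replicate 1 in the family's ratios was not tested.

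**Figure D4:**
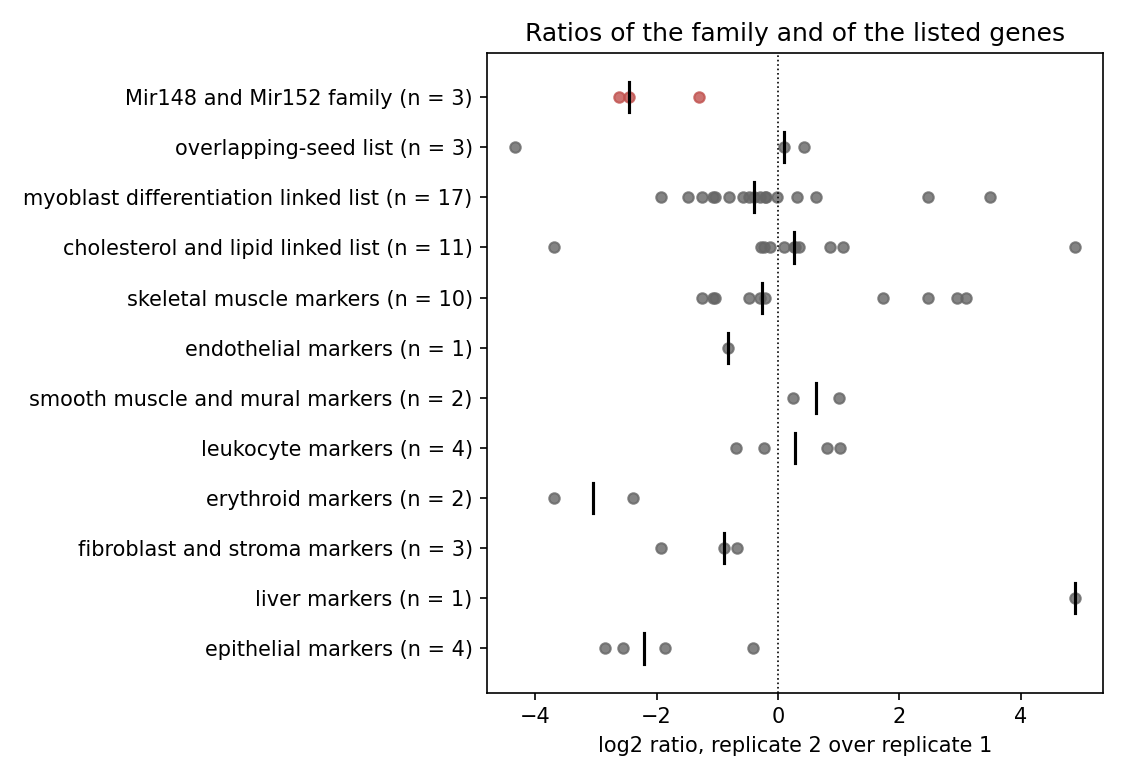
Log2 ratio of replicate 2 over replicate 1 for each member of the family (red) and each gene of the listed groups (grey) with 10 or more counts, with black bars at the medians. The family's median is −2.45, between those of the erythroid (−3.04, 2 genes) and epithelial (−2.20, 4 genes with few counts) markers. The other groups have medians from −0.90 (fibroblast and stroma) to 4.89 (the liver marker alone), with the myoblast differentiation linked list at −0.40.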

How the data were processed

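Small RNA of gastrocnemius was measured by microRNA-seq in 2 libraries of 1 group. The authors deposited raw counts of reads per microRNA gene, made on mm10 and GENCODE M21, as the readmes that accompany them state. How reads were trimmed, aligned and counted is not given in the sources used here. By its values, the first of the 3 columns ignores strand, the second holds reads on the strand of the gene (used here) and the third those opposite to it. All 2202 gene identifiers matched M21. Reads in no gene were kept out of library totals, as were multimapping ones. Unmapped reads, 6.76% in replicate 2 and 7.93% in replicate 1, were also outside these totals. Together this left 19.8% of reads assigned in replicate 2 and 15.7% in replicate 1.

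CPM used all assigned counts. Log2 ratios used CPM + 1 and library sizes scaled by TMM over genes with 10 or more summed counts, which moved ratios by 0.0932 against plain totals. With 1 group there was no contrast to test and no edgeR or DESeq2 test was run. The ratio step was run on simulated counts with known fold changes and counting error only. That run checks the calculation and does not cover the wider spread between the real libraries. The members, lists and settings were chosen with earlier results of these data known. The rule for named genes took the members, the 3 nearest genes by level to each and the 2 most abundant genes of each list. Mir350, the marker genes named and Mir721 and Mir301b, which had no count, were named beside it. Alternatives were counts without strand, DESeq2 size factors, plain totals, pseudocounts of 0.1 and 5 CPM, other count filters, totals without the most abundant gene and each library alone. Tools were R 4.3.3, edgeR 4.0.16, DESeq2 1.42.0, Python 3.11.15, scipy 1.17.1, numpy 2.4.6, matplotlib 3.10.9 and pandas 2.3.3.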

Additional observations from a re-analysis of the deposited data

How the results depend on the processing

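Under the 7 alternatives run for the ratios (counts without strand, DESeq2 size factors, plain totals, pseudocounts of 0.1 and 5 CPM, no count filter and a filter of 100 counts) the log2 ratio of replicate 2 over replicate 1 stayed negative for each member. It ranged from −2.76 to −2.52 for Mir152, from −2.59 to −2.24 for Mir148a and from −1.44 to −1.20 for Mir148b. The number of genes apart by 2-fold or more, 120 in all, depended more on the setting. With a pseudocount of 5 CPM it was 71, of which 32 were higher and 39 lower in replicate 2. With scaling and counting over genes with 100 or more counts it was 64, of which 31 were higher and 33 lower. The median ratio of all genes was −0.16 with no count filter and 0.08 with the filter of 100 counts. The family's share of assigned counts, 0.0319%, was 0.0447% with the counts without strand and 0.0382% with totals that leave out the most abundant gene. Both shifts were smaller than the SD between the libraries, 0.0302%. That SD was nearly as large as the share, so this says little about stability. Each library alone gives the levels of that library. No paired analysis was possible because the libraries form 1 group with no second condition to pair with. The 41 to 102 counts per member in replicate 2 set the width of the intervals, and 2 libraries give no estimate of spread for a single gene beyond their difference.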
